A study of Mus musculus with 6 samples.

Results

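The genes described are 10 members of the ATF4 branch of the integrated stress response in mouse, out of 55367 gene symbols in the deposited tables. They are the transcription factor genes Atf4, Atf5, Atf3 and Ddit3, the regulators Trib3 and Nupr1, the hormone gene Fgf21, and the enzyme genes Asns, Cth and Chac1. The list was chosen by gene name as known members of the pathway, at a time when their levels in these same libraries were already known, so the levels below are a description and carry no test. All 10 symbols were found in every table.

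The study sequenced RNA of acinar cells of the pancreas, which make digestive enzymes, to describe their expression. It holds 6 libraries of 1 group, from mice of the genotype Pdx1-Cre; Klf5-mCherry-CreERT2 with no treatment, and each library came from 300 sorted GFP-positive cells. Every library therefore carries both alleles, a Cre recombinase under the promoter of the pancreatic factor gene Pdx1 and a Klf5 allele that bears mCherry and an inducible Cre, and no library without them was analysed here. The genotype label names no GFP reporter, and age and sex are not given. The deposited names hold a number that no label explains, and it parts replicates 4 to 6, here called set B, from replicates 1 to 3, here called set A, and a set cannot be told apart from anything else that differed between these libraries. Nothing states that the libraries came from separate animals, so the spread between them may be technical.

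Total counts ran from 4670819 to 7072270 per library. Ribosomal RNA genes took 59.9% to 60.9% of the counts in set B and 38.1% to 46.8% in set A. Background, measured over olfactory and vomeronasal receptor genes, which serve mainly in sensory tissue, was 52.3 to 327 counts per Mb in set B and 26.4 to 39.1 in set A, and replicate 5 of set B was the library with 327. All 8 acinar markers were at 1 TPM or more in all 6 libraries, with Ctrb1, the chymotrypsinogen gene, at 84809 ± 30661 TPM (SD, n = 6). TPM are counts per kb of exon, scaled to the same total in every library, with ribosomal RNA genes in that total.

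In the integrated stress response, kinases that sense unfolded protein, missing amino acids, missing heme or double-stranded RNA phosphorylate the initiation factor eIF2. Most translation then falls, while the mRNA of Atf4 is translated better because of upstream reading frames in its leader, and ATF4 protein, paired with C/EBP factors, switches on genes of amino acid synthesis, redox control and further stress signalling. Acinar cells translate more protein than most cells and depend on the PERK arm of this response. ATF4 is controlled largely at translation, so levels of Atf4 mRNA are not levels of its protein.

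The DNA site of ATF4 with a C/EBP partner, the C/EBP-ATF response element, has the core TGATGNAA, where N is any base. This core was searched on both strands of the windows from 250 bases before to 50 bases after each transcription start, taken from RefSeq on build GRCm38.p6. Of the 10 members, 9 had a window and Cth had no entry. The core was present in the windows of 6 of these 9 genes, and it was present in 1304 of all 32851 windows (3.97%), or for 1219 of 27025 genes (4.51%). The 6 stretches are shown because they let the sites of the members be compared, with the core in capitals, read 5′ to 3′ on the strand of the gene.
Nupr1 promoter: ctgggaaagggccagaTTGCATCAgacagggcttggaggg
Fgf21 promoter: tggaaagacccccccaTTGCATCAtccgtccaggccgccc
Atf3 promoter: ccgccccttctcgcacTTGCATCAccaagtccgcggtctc
Chac1 promoter: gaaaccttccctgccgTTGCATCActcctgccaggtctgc
Asns promoter: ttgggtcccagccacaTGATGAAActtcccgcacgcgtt
Trib3 start: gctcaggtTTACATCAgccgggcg

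The first 4 carried the same 8 letters, TTGCATCA, which is the form TGATGCAA on the strand opposite to the gene. That form was present in 294 of all windows (0.895%). The stretch of Nupr1 lies at chr7:126625557-126625596 on the minus strand, with the core at positions −110 to −103 from the start. The Fgf21 stretch lies at chr7:45615606-45615645 on the minus strand, with the core at positions −139 to −132. Atf3 has its core at the same distance as Nupr1, positions −110 to −103, in chr1:191183420-191183459 on the minus strand. In Chac1 the core stands at positions −193 to −186, in chr2:119351033-119351072 on the plus strand. The Asns core reads along the gene, as TGATGAAA, at positions −23 to −16, in chr6:7693210-7693248 on the minus strand. Trib3 has the form TGATGTAA on the opposite strand, 15 to 22 bases after the start, in chr2:152344031-152344054 on the minus strand.

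The windows of Atf4, Atf5 and Ddit3 did not hold these letters, which says only that they are not in those windows. The cyclic AMP response element TGACGTCA, searched in the same way, was present in 588 windows (1.79%) and in 0 of the 9 members with a window. Among related lists, the core was found for 5 of 8 aminoacyl-tRNA synthetase genes with a window (Aars, Gars, Iars, Tars and Yars), for 3 of 14 other ATF4 targets (Vldlr, Herpud1 and Pck2), for 2 of 10 genes of amino acid synthesis (Pycr1 and Got1) and for 2 of 6 genes of amino acid transport (Slc7a11 and Slc1a4). It was found for 0 of 12 genes of the IRE1 and ATF6 branches and for 0 of 11 immediate early genes. It was also found for 2 of 8 acinar markers (Cpa1 and Prss2), for 1 of 9 eIF2 and phosphatase genes (Eif2s3x) and for 1 of 9 bZIP partners (Jdp2). A match is a run of letters and not a bound site.

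**Figure D1:**
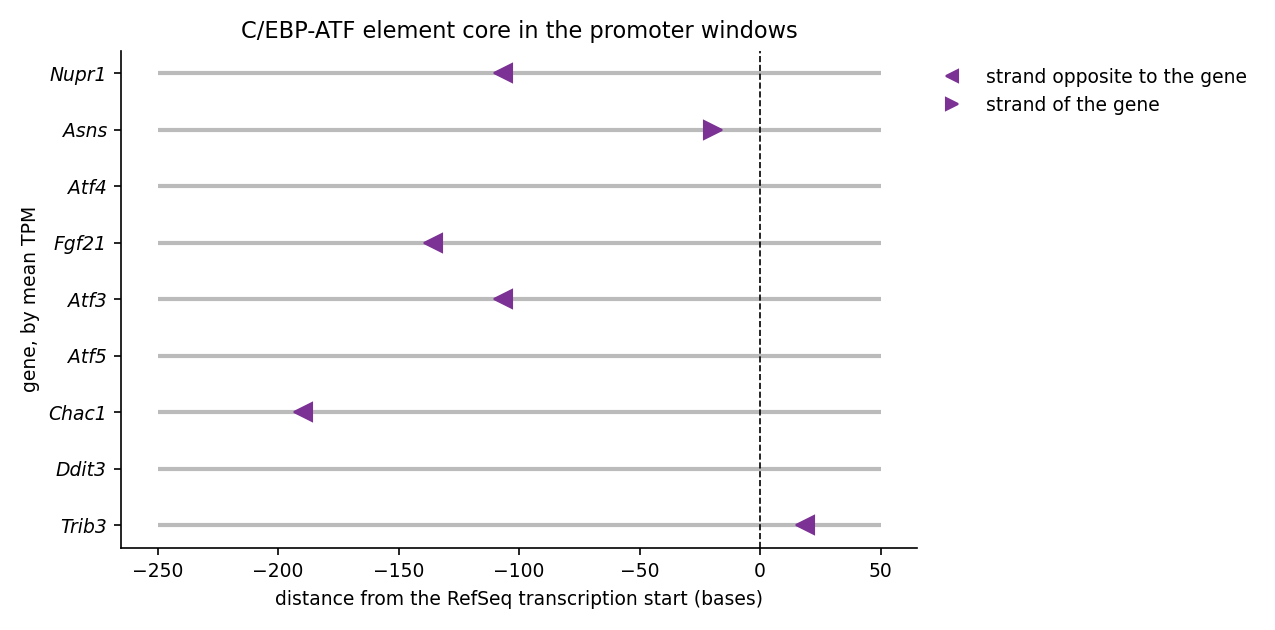
Position of the core TGATGNAA in the promoter windows of the 9 members with a RefSeq window, in bases from the transcription start (dashed line), with the direction of each triangle giving the strand. Of the 6 cores, 5 lie before the start, between positions −193 and −16, and that of Trib3 lies after it.

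Atf4 itself, at chr15:80255184-80257541 on the plus strand, was expressed in every library. It measured 17.7, 7.71 and 12.8 TPM in set B (replicates 4, 5 and 6) and 19.2, 20.5 and 21.8 TPM in set A (replicates 1, 2 and 3). Every library of set B lay below every library of set A, and replicate 5 was the lowest. The mean over all libraries was 16.6 ± 5.37 TPM (SD, n = 6), which placed Atf4 at rank 411 of 21952 nuclear protein-coding genes. These values rest on 39 to 201 counts per library.

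The second translationally controlled factor of the group, Atf5, which also works in the mitochondrial stress response, lies at chr7:44812256-44816658 on the minus strand. It measured 4.30, 5.84 and 3.98 TPM in set B and 8.03, 11.1 and 12.9 TPM in set A, again with no overlap between the sets. Its mean was 7.68 ± 3.66 TPM (SD, n = 6). Other genes cover 13.0% of its span, mainly the Nup62 gene on the opposite strand, which had 0 counts in all 6 libraries, so reads in the shared part may have been dropped.

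Atf3, a stress-induced factor that is also an immediate early gene, lies at chr1:191170296-191218039 on the minus strand. It measured 13.8, 6.27 and 10.5 TPM in set B and 8.27, 10.8 and 14.2 TPM in set A, so the sets overlapped fully. Its mean was 10.7 ± 3.10 TPM (SD, n = 6). Expected background made up 5.80% of its counts over all libraries, and in replicate 5 its 29 counts stood against 15.6 expected. The ratio of Atf3 to Atf4 in TPM was 0.806 ± 0.0186 in set B and 0.536 ± 0.111 in set A (SD, n = 3 each). Background was not removed from this ratio. It was 0.814 in replicate 5, where Atf4 had 39 counts against 0.770 expected from background, so the set B ratio rests partly on background in Atf3.

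Ddit3, which encodes the pro-apoptotic factor CHOP, was near the lower limit of detection. It lies at chr10:127290774-127296288 on the plus strand and measured 2.58, 0.544 and 0.685 TPM in set B and 0.790, 1.23 and 1.25 TPM in set A. The library with 2.58 TPM was replicate 4, with 15 counts, and the other libraries had 2 to 8. The set ranges overlapped, and the mean was 1.18 ± 0.746 TPM (SD, n = 6), rank 6168.

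Trib3, a pseudokinase gene that ATF4 and CHOP switch on, was the lowest member, at chr2:152337422-152344032 on the minus strand. It measured 0.833, 0.438 and 0 TPM in set B and 0.637, 0 and 0.502 TPM in set A. A count of 0 allows a level of up to 0.414 TPM in replicate 6 and up to 0.427 TPM in replicate 2, taking 3 counts as the limit, and this covers counting error only. Expected background made up 21.3% of its counts, and it stood above 3 times background in 3 libraries. With 0 to 6 counts per library, no order of its libraries is read.

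Nupr1 was by far the most abundant member. It encodes a small chromatin-associated stress protein first described in pancreatitis, and it lies at chr7:126623249-126630861 on the minus strand. It measured 218, 134 and 169 TPM in set B and 526, 516 and 528 TPM in set A. The 3 libraries of set A lay close together and all 3 of set B lay far below them. The mean was 349 ± 194 TPM (SD, n = 6), rank 40 of 21952, and the values rest on 722 to 5870 counts per library. Nupr1 made up 69.8% ± 3.25 of the summed TPM of the 10 members in set B and 80.3% ± 1.03 in set A (SD, n = 3 each). Its level depends on the exon length used: with the transcript of the longest coding sequence in place of all exons, a setting chosen after seeing the data, the mean was 855 TPM.

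Fgf21, the gene of a secreted hormone that acinar cells release and that acts through beta-Klotho and FGF receptors, varied most among the members other than Trib3. It lies at chr7:45613886-45615490 on the minus strand and measured 8.07, 4.90 and 2.78 TPM in set B and 32.7, 15.3 and 21.9 TPM in set A. The highest library, replicate 1 with 138 counts, and the lowest, replicate 6 with 9 counts, belonged to different sets, which did not overlap. The mean was 14.3 ± 11.5 TPM (SD, n = 6). Its coefficient of variation was 80.4%, against 13.9% from counting alone at its mean count. The median over 661 protein-coding genes with a mean of 10 TPM or more was 21.99%. Counting error was larger in set B, where Fgf21 had 26, 10 and 9 counts. In replicate 6 it had 1.27 CPM with a 95% interval of 0.582 to 2.42.

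Asns, the gene of asparagine synthetase, was the second most abundant member by exon length, at chr6:7675169-7693254 on the minus strand. It measured 27.6, 33.2 and 28.7 TPM in set B and 46.3, 46.0 and 46.5 TPM in set A. The sets did not overlap, and the libraries of set A differed by an SD of 0.293 TPM. That closeness is narrower than counting error. In replicate 2, for example, 416 counts gave 74.9 CPM with a 95% interval of 67.9 to 82.5. With ribosomal RNA genes left out of the total, the SD of set A was 3.74 TPM. The mean was 38.1 ± 9.20 TPM (SD, n = 6), rank 214, on 195 to 562 counts. The ratio of Nupr1 to Asns was 5.94 ± 1.93 in set B and 11.3 ± 0.0784 in set A (SD, n = 3 each). The SD of this ratio in set A is likewise narrower than the counting error of Asns.

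Cth encodes cystathionine gamma-lyase, which makes cysteine in the last step of transsulfuration, and lies at chr3:157894248-157925077 on the minus strand. It measured 3.38, 5.34 and 2.84 TPM in set B and 7.27, 7.36 and 6.21 TPM in set A, without overlap. The mean was 5.40 ± 1.93 TPM (SD, n = 6). Other genes cover 7.24% of its span, and expected background made up 5.70% of its counts over all libraries. In replicate 5 its 32 counts stood against 10.1 expected.

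Chac1 encodes a gamma-glutamylcyclotransferase that breaks down glutathione, and lies at chr2:119351229-119354381 on the plus strand. It measured 4.15, 3.98 and 8.07 TPM in set B and 7.58, 5.17 and 11.4 TPM in set A, and the set ranges overlapped. The mean was 6.73 ± 2.87 TPM (SD, n = 6). By exon length, the gene of an enzyme that makes cysteine and that of one that consumes glutathione were at like levels, both well below Asns. With gene spans in place of exon lengths, Cth had a mean of 0.766 TPM, Chac1 5.35 and Asns 8.89 TPM, so the likeness depends on the length used.

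**Figure D2:**
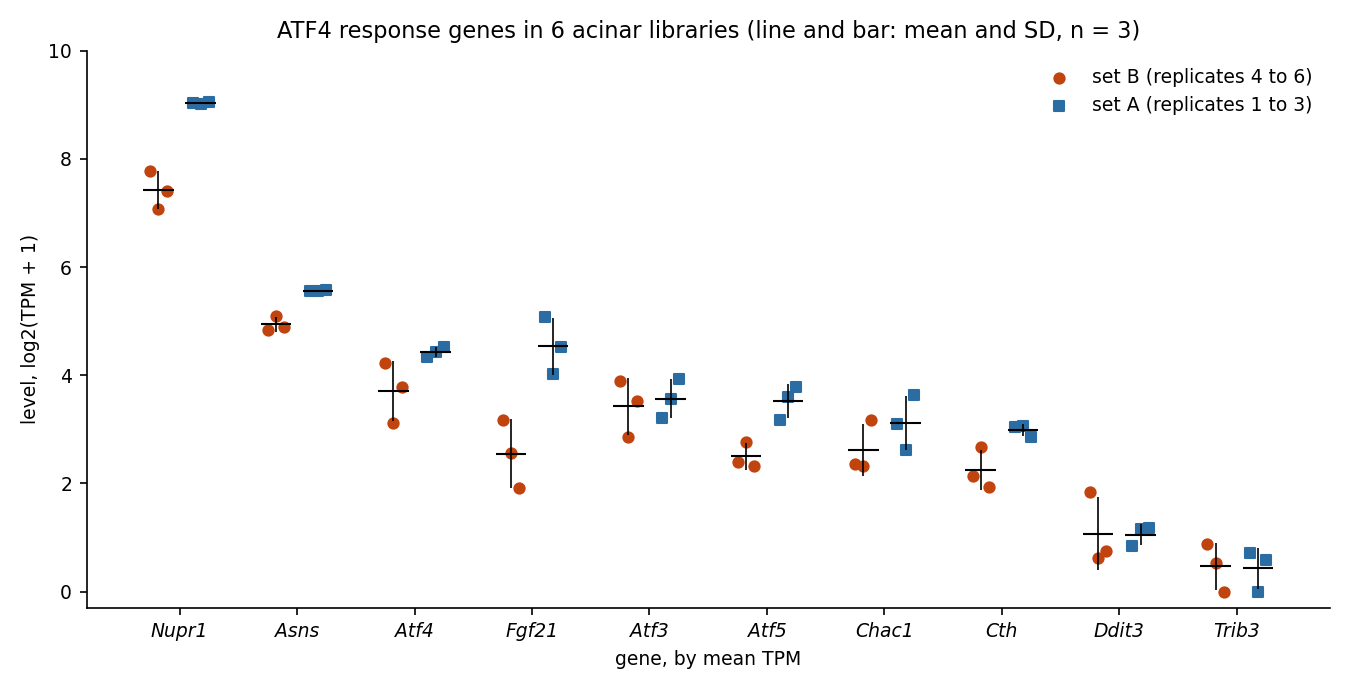
Level of each member as log2(TPM + 1) in the 6 libraries, with set B (circles) left of set A (squares), and mean and SD of each set as line and bar (n = 3). Nupr1, Asns, Atf4, Fgf21, Atf5 and Cth show no overlap between the sets, whereas Atf3, Chac1, Ddit3 and Trib3 do overlap. With ribosomal RNA genes left out of the total, only Nupr1 and Fgf21 kept no overlap. The share of all genes without overlap was not counted, so nothing is read from these members.

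In order of mean level the members ran Nupr1, Asns, Atf4, Fgf21, Atf3, Atf5, Chac1, Cth, Ddit3 and Trib3. Neighbours in this order were compared within libraries on the log2(TPM + 1) scale, and taken to differ where the mean difference exceeded 2 SD of the 6 differences. Nupr1 lay above Asns by 2.97 ± 0.62, Asns above Atf4 by 1.18 ± 0.44 and Cth above Ddit3 by 1.55 ± 0.71 (SD, n = 6), each in 6 of 6 libraries. The members from Atf4 down to Cth did not differ from their neighbours beyond this spread. Of these neighbours Atf4 and Fgf21 differed most, by 0.52 ± 0.89, with Atf4 higher in 4 of 6 libraries, and Fgf21 and Atf3 least, by 0.05 ± 1.20, with Fgf21 higher in 3 of 6. Ddit3 lay above Trib3 in 6 of 6 libraries, by 0.62 ± 0.43, which is within 2 SD. This order depends on the length used. With gene spans in place of exon lengths, Asns had a mean of 8.89 TPM, below Atf4 at 25.8 and Fgf21 at 14.2 TPM. Cth then had 0.766 TPM and Ddit3 0.540 TPM, and Nupr1 stayed highest at 187 TPM.

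At 1 TPM or more in all 6 libraries stood 8 of the 10 members, beside 3762 of 21952 nuclear protein-coding genes (17.1%). Above 3 times the expected background in all 6 libraries stood 7 of the 10, all but Atf3, Ddit3 and Trib3, beside 2703 protein-coding genes (12.3%). The median of the mean log2(TPM + 1) was 3.25 over the members and 0.49 over all nuclear protein-coding genes. The members were listed with their levels known, so nothing is read from these shares.

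Beyond the members, the kinase that starts the response in the endoplasmic reticulum, PERK (Eif2ak3), measured 9.48 ± 2.27 TPM (SD, n = 6). It was the highest of its list of 7 kinase and GCN2 regulator genes, ahead of Abce1 at 2.84 TPM and the heme-regulated kinase gene Eif2ak1 at 1.65 TPM, while the double-stranded RNA kinase gene Eif2ak2 was lowest at 0.555 TPM. The list of eIF2, eIF2B and phosphatase genes was led by Dnajc3, which encodes an inhibitor of PERK, at 26.3 ± 3.70 TPM, then Eif2b2 at 6.65 and Eif2b1 at 4.79 TPM. Eif2s2 had 0 counts, but its whole span is covered by other genes, and its absence cannot be read. The partner factors were led by Atf2 at 21.7 ± 16.1 TPM, Atf1 at 3.21 TPM and Nfe2l2 at 2.49 TPM, all of the bZIP class. The lowest of that list, Atf7, had 1 count in all and other genes cover 99.6% of its span.

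Other known ATF4 targets ran from Herpud1, a gene of endoplasmic reticulum degradation, at 86.5 ± 37.6 TPM, through Eif4ebp1, a translation inhibitor gene, at 18.4 ± 4.08 TPM, and the autophagy receptor gene Sqstm1 at 13.9 ± 3.54 TPM (SD, n = 6 each) down to Map1lc3b, which had 0 counts and a span wholly covered by other genes. Of these 17 genes, 7 were at 1 TPM or more in all libraries. For amino acid synthesis this was 11 of 11, led by the serine synthesis gene Phgdh at 33.6 ± 14.1 TPM, the proline gene Pycr1 at 14.6 TPM and Cbs, which acts just before Cth, at 11.3 TPM, with the serine gene Psph lowest at 1.61 TPM. Among 12 aminoacyl-tRNA synthetase genes it was 11, led by Wars with 18.5 to 21.5 TPM over the 6 libraries, Gars at 9.57 and Nars at 8.41 TPM, with Aars lowest at 1.31 TPM. Of 9 amino acid transporter genes it was 5, led by Slc3a2, the heavy chain of several transporters, at 16.8 ± 3.77 TPM, Slc1a5 at 5.94 and Slc38a2 at 5.32 TPM. The transporter genes Slc7a5 and Slc6a9 had 0 counts with at least 98.1% of their spans covered by other genes.

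The parallel arms of the unfolded protein response, through IRE1 and ATF6, stood at a higher median than the members, 4.45 against 3.25 on the log2(TPM + 1) scale. All 15 of their genes were at 1 TPM or more in all libraries, with Sdf2l1 at 53.8, Sel1l at 47.8, the splicing target gene Xbp1 at 42.0 and the lowest, Hyou1, at 3.45 TPM. Mitochondrial stress genes ran from Hspe1 at 12.5 TPM, Clpp at 7.35 and Hspd1 at 6.32 TPM to Lonp1 at 2.34 TPM. Of the listed FGF receptor and Klotho genes, Fgfr2 measured 159 TPM with other genes over 58.2% of its span. The FGF21 co-receptor gene Klb measured 1.5 TPM and Fgfr1 1.10 TPM. Kl, whose counts were within the expected background, measured 0.127 TPM. Glutathione genes were led by Ggt1 at 28.9 TPM, then Cbs at 11.3 TPM and Gclc at 1.65 TPM, and Chac2, the relative of Chac1, had 0 counts with its span wholly covered by other genes. Immediate early genes, which dissociation of tissue is known to raise, were led by Fos at 36.8 TPM, Ier2 at 20.96 and Btg2 at 18.6 TPM, and the lowest was Hspa1a at 0.345 TPM, with 75.0% of its span covered. The part of tissue dissociation in the levels of Atf3 and the other members was not tested.

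**Figure D3:**
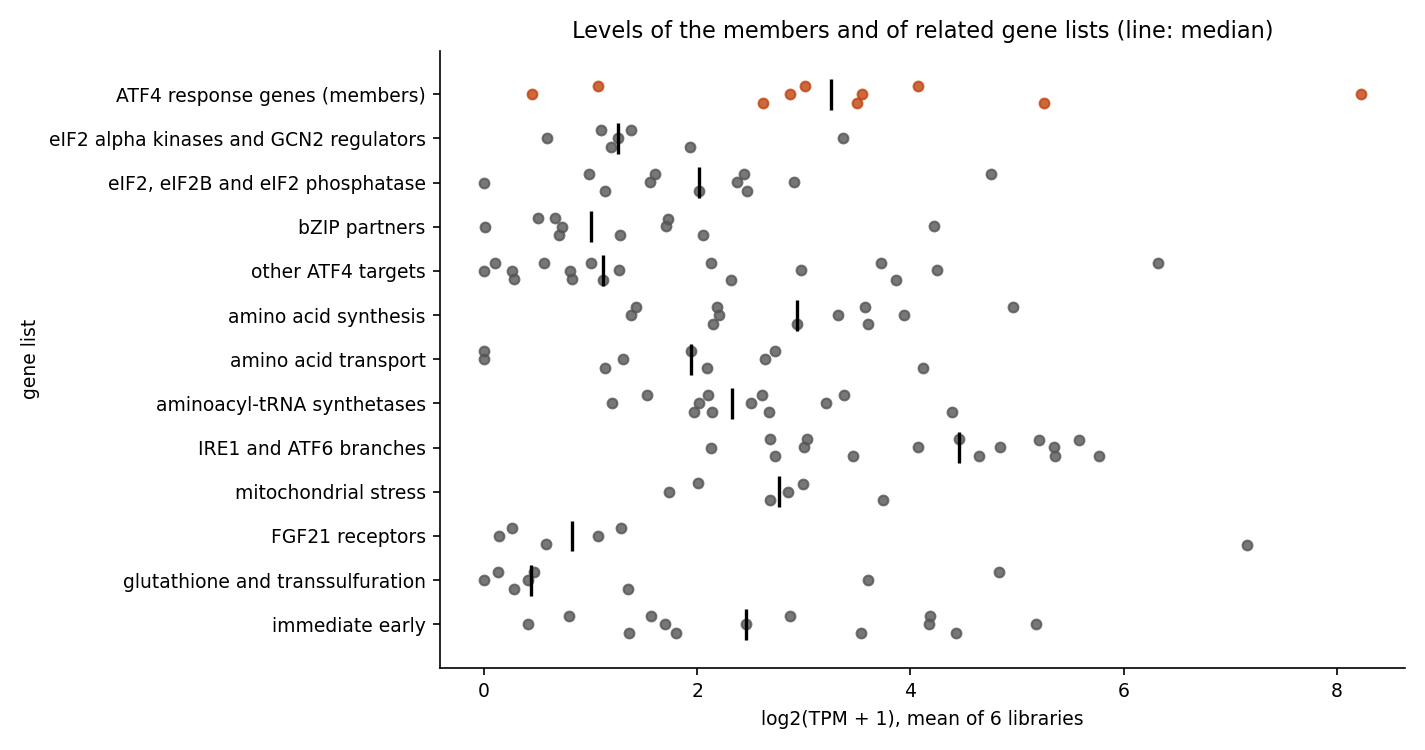
Mean log2(TPM + 1) over the 6 libraries of each gene in the members (top row) and 12 related lists, with the median of each list as a vertical line. The median of the members lies at 3.25, below that of the IRE1 and ATF6 branches at 4.45 and above the other lists shown.

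The libraries of set B were then set against those of set A by edgeR's quasi-likelihood test over 8723 genes that passed its filter on low counts. All 8 members that passed the filter lay lower in set B in this fit, and none passed the threshold of 0.05 on the Benjamini-Hochberg adjusted p. Over all genes the same test called 1 gene (0.0115%), the topoisomerase gene Top2a, which was higher in set B and is named here after its value was seen. At an unadjusted p under 0.05 stood 7 of the 8 members and 2258 of all 8723 genes (25.9%). Ddit3 and Trib3 did not pass the filter. The median log2 difference was −1.28 over the 8 members and 0.00 over all genes tested.

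Fgf21 had a log2 difference, set B minus set A, of −2.64 ± 0.49 (SE), Nupr1 of −2.05 ± 0.36 and Atf5 of −1.70 ± 0.29. Cth followed at −1.41 ± 0.28 and Asns at −1.15 ± 0.24. These 5 genes shared an edgeR adjusted p of 0.087, and by p they ranked between 11 (Atf5) and 56 (Asns) of all genes tested. Atf4 stood at −1.12 ± 0.39 with an edgeR adjusted p of 0.115, and Chac1 at −1.04 ± 0.45 with 0.182. Atf3 stood at −0.55 ± 0.41 with an edgeR adjusted p of 0.432. The single-gene exact permutation test of 3 libraries against 3 cannot give a two-sided p below 0.1.

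DESeq2 called 5 members lower in set B (Nupr1, Fgf21, Atf5, Asns and Cth) and 2.60% of all genes it tested lower. Without the filter on low counts edgeR called 4 members lower (Nupr1, Fgf21, Atf5 and Cth), with 0.682% of all genes lower. Leaving out replicate 4 gave 6 members lower in set B with 5.72% of all genes, and leaving out replicate 5 also gave 6 with 4.07%, in both cases the 5 genes above and Atf4. Without replicate 5 the log2 difference was −0.79 for Atf4 and −0.22 for Atf3. Leaving out any other single library gave 0 members. The members were chosen with these differences known, and nothing is read from their share against that of all genes.

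Leaving out ribosomal RNA genes but keeping TMM put Nupr1 at −2.06, Asns at −1.16 and Atf4 at −1.13, and 0 members were called. Dropping TMM as well moved every difference. With library totals taken outside ribosomal RNA genes and no TMM, a setting added after seeing the data, the median over all genes tested shifted to 0.77, and all 8 log2 differences were higher than under TMM. Nupr1 then stood at −1.35 and Fgf21 at −1.89, both with an edgeR adjusted p of 0.047, and these were the 2 members called, with 0.506% of all genes called lower. Atf5 stood at −0.95, Cth at −0.61, Atf4 at −0.44, Asns at −0.39 and Chac1 at −0.34, none past the threshold, and Atf3 turned to 0.12. On TPM with ribosomal RNA genes left out of the total, Nupr1 measured 431, 292 and 346 in set B and 702, 725 and 785 in set A, and Fgf21 measured 15.97, 10.7 and 5.68 in set B and 43.6, 21.5 and 32.5 in set A. On that scale these 2 were the members whose sets did not overlap. The share of all genes without overlap was not counted on either scale. Asns measured 54.7, 72.6 and 58.6 in set B and 61.7, 64.6 and 69.2 in set A, and Atf4 measured 34.9, 16.8 and 26.2 in set B and 25.6, 28.8 and 32.5 in set A, both with overlap.

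**Figure D4:**
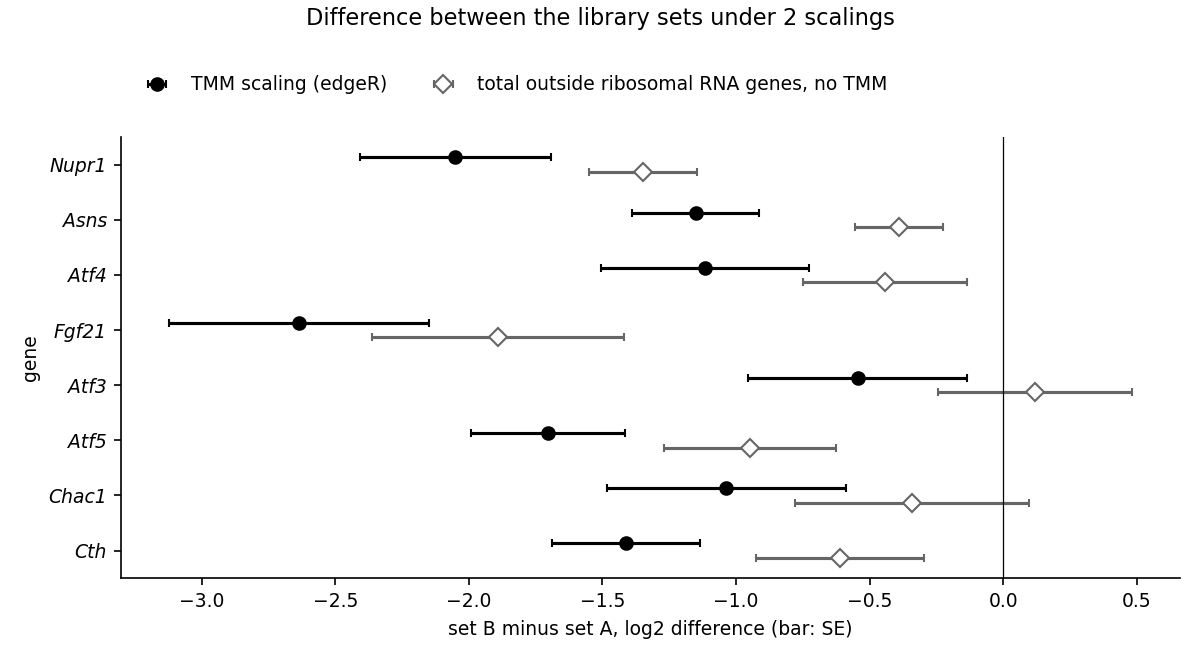
Log2 difference, set B minus set A, of the 8 members that passed the filter, with SE as bars, under TMM scaling (filled circles) and with totals outside ribosomal RNA genes and no TMM (open diamonds). Every circle lies below 0, and under the second scaling all diamonds but that of Atf3 lie below 0.

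Marker lists of acinar and other cells were summed in each library. Summed TPM of the 8 acinar markers were 105512 to 166697 in set B and 270149 to 308640 in set A. Summed endocrine markers were 37.8 to 2224 TPM in set B and 8.90 to 39.4 TPM in set A, led by the insulin gene Ins2 with a mean of 714 TPM in set B and 11.0 TPM in set A. Ductal markers summed to 30.0 to 148 TPM in set B and 35.5 to 66.2 TPM in set A, and erythroid markers to 0 to 36.6 TPM in set B and 0 to 0.744 TPM in set A. Myeloid, fibroblast, endothelial and lymphoid lists each summed to at most 12.4 TPM in set B and at most 13.2 TPM in set A. At 1 TPM or more in all 6 libraries stood 2 of 6 endocrine and 2 of 6 ductal markers and 0 of the markers of the other non-acinar lists, and the defining markers Hbb-bs, Cd3e and Cd3g were at 0 in all of set A. DESeq2 called 5 of the 8 acinar markers lower in set B (Cpa1, Prss2, Ctrb1, Cela1 and Pnlip), as many as of the 8 members tested, and edgeR's median log2 difference was −1.31 over the acinar markers and −1.28 over the members. DESeq2 also called Ins1, Ins2, Chga, the ductal marker Cftr and the leukocyte marker Ptprc higher in set B. Expected background made up 70.1% of the counts of Cftr and 77.1% of those of Ptprc. Both were highest in replicate 5, the library with the highest background. The part of these markers, of ribosomal RNA or of background in the lower levels of the members in set B was not tested, and in bulk libraries fewer cells of a type and less RNA per cell cannot be told apart.

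edgeR's test between the sets called 0 of the 100 genes of the related lists that it tested, of which 35 stood at an unadjusted p under 0.05. DESeq2 called 2.60% of all genes lower and 9.10% higher in set B. It called 5 of the 10 other ATF4 targets it tested lower in set B, which were Herpud1, Pck2, Cdkn1a, Sqstm1 and Eif4ebp1. Among transporters it called Slc7a3 and Slc1a5 lower and Slc7a11, the cystine carrier gene, higher in set B. Of the counts of Slc7a11, however, expected background made up 72.9%. Its level was highest in replicate 5, the library with the highest background, at 5.69 TPM. Replicates 4 and 6 also lay above every library of set A. The part of background in this call was not tested. In the other related lists DESeq2 called Xbp1, Hspa9, Ggt1 and Btg2 lower and Atf2 higher. It called 0 of 11 genes of amino acid synthesis and 0 of 12 aminoacyl-tRNA synthetase genes, with median log2 differences of −0.59 and −0.54.

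For the 3 highest members, the genes with the most similar profile over the 6 libraries were sought among 638 protein-coding genes with a mean of 10 TPM or more and no overlapped span. Likeness was the root mean square difference between log2(TPM + 1) profiles, each centred on its own mean, with ribosomal RNA genes left out of the total. Nearest to Nupr1 were Gal, the galanin gene, at 0.13, the chymotrypsin-like enzyme gene Ctrl at 0.16 and the glutathione transferase gene Gstm1 at 0.19, where the profile of Nupr1 itself spread by 0.56 about its mean and the median over all candidates was 0.81. Gal, for example, measured 182, 160.1 and 169 TPM in set B and 359, 397 and 382 TPM in set A on that scale. Nearest to Atf4 were the ribosomal protein gene Rps6 at 0.09, Myc at 0.12 and Hgfac at 0.12, against its own spread of 0.33. These genes shared with Atf4 a low value in replicate 5.

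Asns varied little on that scale, by 0.14 about its mean, and so did its nearest genes Hsbp1l1 at 0.10, the acetyl-CoA acetyltransferase gene Acat1 at 0.10 and Vapa at 0.12. Without replicate 5 the 3 nearest genes of Nupr1 were the same, but 0 of those of Asns and 1 of those of Atf4, Myc, were shared. Between members, Asns and Cth were nearest at 0.22, then Atf5 and Cth at 0.29, and Fgf21 and Atf3 were farthest apart at 1.15. All these values come from 6 points that share the parting into sets and the high background of replicate 5.

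**Figure D5:**
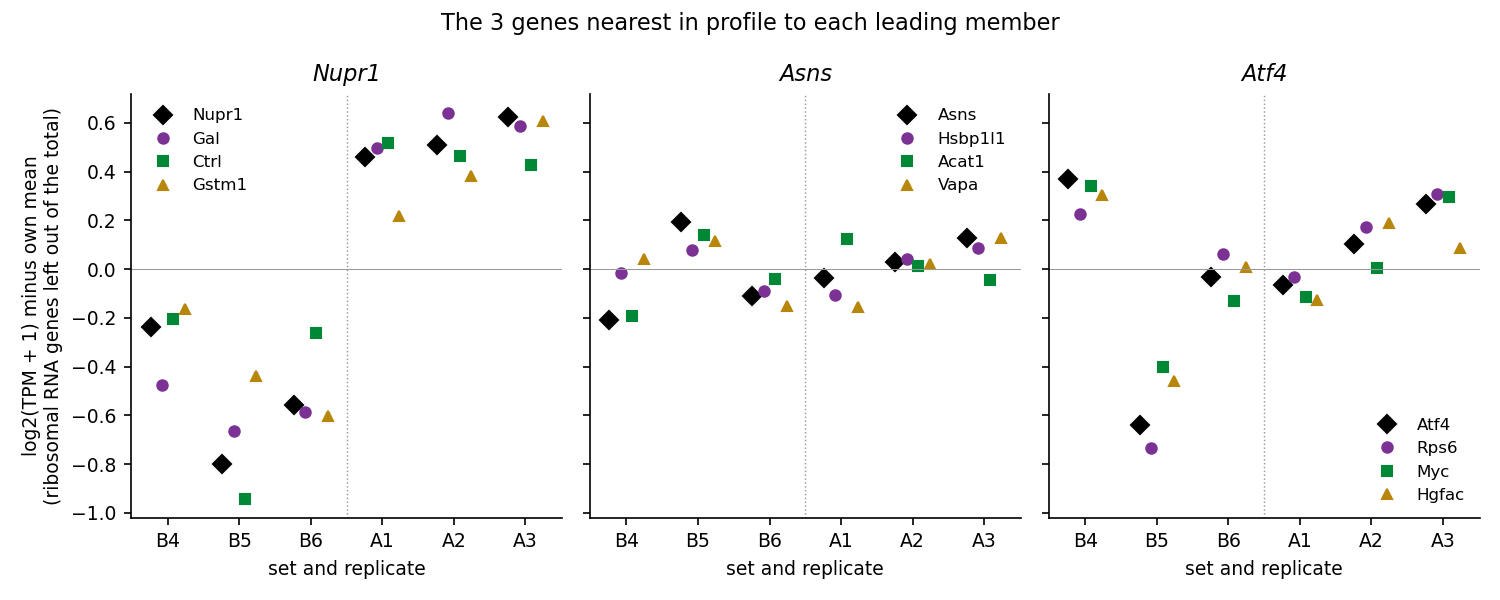
Profiles of Nupr1, Asns and Atf4 (black diamonds) and of the 3 genes nearest to each, as log2(TPM + 1) minus the own mean over 6 libraries, with ribosomal RNA genes left out of the total and set B left of set A. The 3 set B libraries lie below 0 for Nupr1 and its nearest genes, and Atf4 has its lowest value in replicate 5.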

How the data were processed

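RNA was measured in 6 libraries of 300 sorted acinar cells each, made by a modified Smart-seq2 protocol with 12 preamplification cycles, per the labels' protocols. The authors deposited raw counts per gene symbol, with no normalization. Per the submitters' processing notes, Trim Galore 0.6.4, FastQC, STAR 2.7.9a, SAMtools, featureCounts and build mm10 were used. The annotation release, strand setting and handling of multiply aligned reads are not given in the sources used here. The label for the molecule reads genomic DNA, although the protocol is for RNA. The deposited length equals the gene span for 55365 of 55367 symbols, so counts take in introns, and long genes hold more background.

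TPM were computed from the deposited counts and GENCODE M21 exon lengths, found for 55144 symbols holding 99.998% of counts. Background came from 1453 olfactory and vomeronasal receptor genes over 12.8 Mb of span, with 7408 counts in total. The fit between sets used the quasi-likelihood test of edgeR 4.0.16 after filterByExpr and TMM, adjusted by Benjamini-Hochberg over all genes tested at a threshold of 0.05, with the pseudocount of 1 used for log2 levels only. Software was R 4.3.3 with DESeq2 1.42.0 and limma 3.58.1, and Python 3.11.15 with matplotlib 3.10.9, pandas 2.3.3, numpy 2.4.6 and scipy 1.17.1. The edgeR step was run on simulated counts. These had no shift in ribosomal RNA or background between the sets, so they cannot show how the test behaves under such shifts. No pair of libraries agreed within counting noise: the lowest chi-square per degree of freedom over 15 pairs was 8.15.

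Members, lists, the rule for named genes and tests were chosen with earlier results of these data known. All members were named. The rule named the 3 highest genes and the lowest of each other list. The marker lists are instead given mainly as sums. Genes that DESeq2 called were named after their values were seen. Alternatives were other exon lengths, gene spans, CPM, a pseudocount of 0.1, background subtraction, ribosomal RNA genes left out, no filter, DESeq2 and leaving out each library. Protein sequences were not used here.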

Additional observations from a re-analysis of the deposited data

Results flagged for a closer look

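Of 12 values checked for a library far from the other 5, 2 stood out, and chance marks about 5% of such groups. Ddit3 measured 2.58 TPM in replicate 4 of set B, where the next highest library, replicate 3 of set A, had 1.25 TPM, and the value rests on 15 counts. Background measured 327 counts per Mb in replicate 5 of set B, where the next highest, replicate 6 of set B, had 110. Calls between the sets and nearest genes are given with and without replicate 5, whereas mean levels, ratios and the likeness between members include it.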

How the results depend on the processing

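The number of members at 1 TPM or more in all libraries stayed between 6 and 9 over 11 alternatives, and the number above 3 times background was 7 in every leave-one-out but that of replicate 5, where it was 9. Gene span, the total without ribosomal RNA and background subtraction could give no other value for this second count, which does not use them. The median level of the members was 2.54 with gene spans and 3.95 with ribosomal RNA genes left out of the total. Of 100 mean levels of single members under alternatives, 87 moved by less than 1 SD. Leaving out 1 of 6 libraries cannot move a mean by 1 SD, so those alternatives could give no other result. The 13 that moved further came from gene spans, another exon length or the total without ribosomal RNA genes. Between the sets, genes higher in set B numbered 794 with DESeq2, 790 without the filter, 1791 with totals outside ribosomal RNA genes and no TMM, and 0 to 1656 when leaving out 1 library. Genes lower in set B numbered 227, 203 and 43 under those 3 settings and 0 to 561 when leaving out 1 library, and the members called numbered 5, 4 and 2, and 0 to 6. Of 80 log2 differences of members under alternatives, 56 kept their direction and side of the threshold, 23 passed it in the same direction and 1 reversed, that of Atf3, to 0.12 without TMM. Nearest genes shared with the 9 named numbered 7 with TMM-scaled CPM and 4 without replicate 5. The cause of these changes was not tested. Totals of 4670819 to 7072270 counts put 3 counts at 0.424 to 0.642 CPM, which limits what can be said of Ddit3 and Trib3. No paired analysis was possible because the labels give a single group.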
